A study of Mus musculus with 3 samples.

Results

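Interferon-stimulated genes are the genes that cells switch on after interferon binds its receptor, and 32 of them were followed here across the cell types of the inflamed mouse colon. They were the listed symbols found among the 32285 genes of the deposited count tables, out of 34 listed. The other 2 are not analysed here. The list was divided by the interferon each gene is best known to answer. The type I group held 14 genes (Isg15, Ifit1, Ifit2, Ifit3, Ifit3b, Oas1a, Oas3, Oasl1, Oasl2, Rsad2, Cmpk2, Usp18, Irf7 and Rtp4), and the gamma group held 11 (Gbp2, Gbp3, Gbp4, Gbp5, Gbp7, Igtp, Iigp1, Irgm1, Ifi47, Irf1 and Socs1). A further 7 that answer both were kept apart as a mixed group (Isg20, Stat2, Bst2, Zbp1, Xaf1, Ifi204 and Ifi211).

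All mice were C57/BL6J and all had acute colitis, induced with 1.5% dextran sulfate sodium (DSS) in drinking water for 7 days and followed by 3 days of plain water. They received 250 µg of antibody into the peritoneum 3 times a week: clone DATK32, clone MECA-367 or rat IgG as isotype control. Each antibody gave 1 single-cell library of large intestine lamina propria cells, and the labels do not state how many animals went into each. The labels pair DATK32 with ontamalimab and MECA-367 with vedolizumab as surrogates, whereas DATK32 is known as an antibody to integrin α4β7 and MECA-367 as an antibody to its vessel ligand MAdCAM-1. The groups are therefore named by clone, and no drug is attached to a result.

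Type I interferons signal through a receptor whose kinases act on STAT2, which works with IRF9 at the interferon-stimulated response element. Interferon gamma, made mainly by NK cells and T cells, signals through its own receptor to genes that carry the gamma-activated site. The Ifit, Oas and Rsad2 products restrict viral RNA, whereas the guanylate-binding proteins (Gbp) and immunity-related GTPases (Irgm1, Igtp, Iigp1, Ifi47) attack vacuoles that hold microbes. The division is one of degree, since many of these genes answer both interferons.

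The promoters of these genes were searched for the letters of both elements. RefSeq promoters of build GRCm38.p6, from 250 bases before to 50 bases after a gene's start, were at hand for 26 of the 32 genes. The response element was searched on both strands as GAAA, any 2 bases and GAAA again (TTTC, any 2 bases and TTTC on the other strand), and the gamma-activated site as TTCNNNGAA, which reads the same on both strands. The 120 bases before the start are printed 5′ to 3′ on the gene's own strand for 5 genes that have a match there, with letters of either motif in capitals.
Isg15, chr4:156200819-156200938, minus strand: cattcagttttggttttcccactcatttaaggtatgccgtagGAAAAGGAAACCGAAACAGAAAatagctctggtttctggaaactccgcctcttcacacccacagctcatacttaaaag
Ifit1, chr19:34640769-34640888, plus strand: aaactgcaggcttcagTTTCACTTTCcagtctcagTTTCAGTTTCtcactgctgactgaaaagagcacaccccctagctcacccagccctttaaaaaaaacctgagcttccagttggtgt
Gbp2, chr3:142620543-142620662, plus strand: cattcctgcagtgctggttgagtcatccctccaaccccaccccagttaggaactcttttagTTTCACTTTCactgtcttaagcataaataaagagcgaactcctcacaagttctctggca
Igtp, chr11:58199436-58199555, plus strand: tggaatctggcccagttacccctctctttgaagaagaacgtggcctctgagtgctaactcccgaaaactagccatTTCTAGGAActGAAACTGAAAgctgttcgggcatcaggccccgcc
Irf1, chr11:53769894-53770013, plus strand: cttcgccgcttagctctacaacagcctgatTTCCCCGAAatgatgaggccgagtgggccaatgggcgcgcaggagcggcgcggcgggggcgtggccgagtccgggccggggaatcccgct
The capitals are response elements in Isg15, where overlapping matches run together, in Ifit1 and in Gbp2, both motifs in Igtp and a gamma-activated site in Irf1. Over the whole 300-base promoters, the response element was found in 7 of 12 type I genes and in 7 of 9 gamma genes, against 3.99% of the 27025 genes in the table. The gamma-activated site was found in 2 of 12 type I genes and in 4 of 9 gamma genes, against 9.55% of genes. Irf7 and Oasl2, which are among the leading type I genes of some classes, had neither motif. A match is a run of letters and not a measured binding site.

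After barcodes with under 500 unique molecular identifiers (UMIs), under 200 genes or over 10% mitochondrial UMIs were set aside, 5852 DATK32 cells, 5890 MECA-367 cells and 7367 rat IgG cells remained, with 17450259, 18357517 and 18109793 UMIs. Pairs of libraries shared 7 to 11 of the kept barcodes. The sort was for viable CD45+ cells, yet epithelial cells were 27.9%, 15.9% and 27.8% and stromal cells 15%, 20.8% and 17.3% of kept DATK32, MECA-367 and rat IgG cells. Classes were named from marker genes after clustering without the 32 genes, so that class membership did not depend on them. Cluster 12, with 405 DATK32, 350 MECA-367 and 241 rat IgG cells, scored highest on the epithelial list. Its score of 0.474 was under the 0.5 needed, so it stayed unnamed and outside the epithelial class. Cluster 21, led by Krt14, also stayed unnamed, with 179, 0 and 231 cells in the DATK32, MECA-367 and rat IgG libraries. Epithelial cells numbered 1634, 937 and 2048 in the same order of libraries, stromal cells 878, 1227 and 1271, endothelial cells 101, 102 and 107, NK cells with type 1 innate lymphoid cells (ILC1) 326, 380 and 190, B cells 95, 147 and 490, plasma cells 312, 309 and 700, and neutrophils 238, 565 and 235. Levels are CPM, a gene's counts scaled to the total UMIs of its class in its library, and 95% Poisson intervals cover counting error only. The assay counts 1 end of each molecule, so levels of different genes were compared without a length correction. With 1 library per antibody there is no test and no p-value. A difference is called where the fold is at least 1.5 with intervals apart, and a gene counts as measured in a class with at least 20 UMIs over the 3 libraries.

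Among the 7 classes, neutrophils had the highest type I level and epithelium the lowest. The summed type I level in neutrophils was 2659 CPM in the DATK32 library, 2221 CPM in the MECA-367 library and 1123 CPM in the rat IgG library. Endothelial cells came next, with 1542 CPM in DATK32 (95% interval 1359 to 1743), 1265 CPM in MECA-367 (1122 to 1422) and 1054 CPM in rat IgG (898 to 1229). The rat IgG intervals of these classes overlap (neutrophils 1029 to 1223), and the 5 remaining classes were far below. In epithelium the 95% intervals of the type I level overlapped, at 111 to 125 CPM in DATK32, 111 to 129 CPM in MECA-367 and 107 to 121 CPM in rat IgG. In the same order of libraries, type I levels were 317, 284 and 261 CPM in stroma, 201, 184 and 208 CPM in NK cells with ILC1, 216, 144 and 116 CPM in B cells, and 149, 135 and 114 CPM in plasma cells. The lowest place of epithelium is clear in DATK32 only. In MECA-367 and rat IgG its intervals overlap those of B cells (95 to 210 and 91 to 145) and plasma cells (121 to 151 and 102 to 128). Outside the 7 classes, T cells held 311, 206 and 192 CPM and monocytes with macrophages 1807, 1693 and 1506 CPM, the highest type I level in rat IgG.

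The gamma group was spread over more cell types, and endothelium led it. Endothelial cells held 5632 CPM in DATK32, 6166 CPM in MECA-367 and 5255 CPM in rat IgG, and neutrophils held 3292, 3418 and 1665 CPM in the same libraries. Stroma followed with 1465, 1969.7 and 1034 CPM. Epithelium held 634, 625 and 324 CPM, NK cells with ILC1 688, 839.9 and 936 CPM, B cells 922, 998 and 634 CPM, and plasma cells 445, 467 and 315 CPM. T cells held 907, 983 and 870.0 CPM and monocytes with macrophages 3988, 4376 and 3197 CPM. As a share of both groups together, type I genes gave 44.7%, 39.4% and 40.3% of the counts in neutrophils, against 12.6% to 26.6% in the 6 other classes described in depth.

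**Figure D1:**
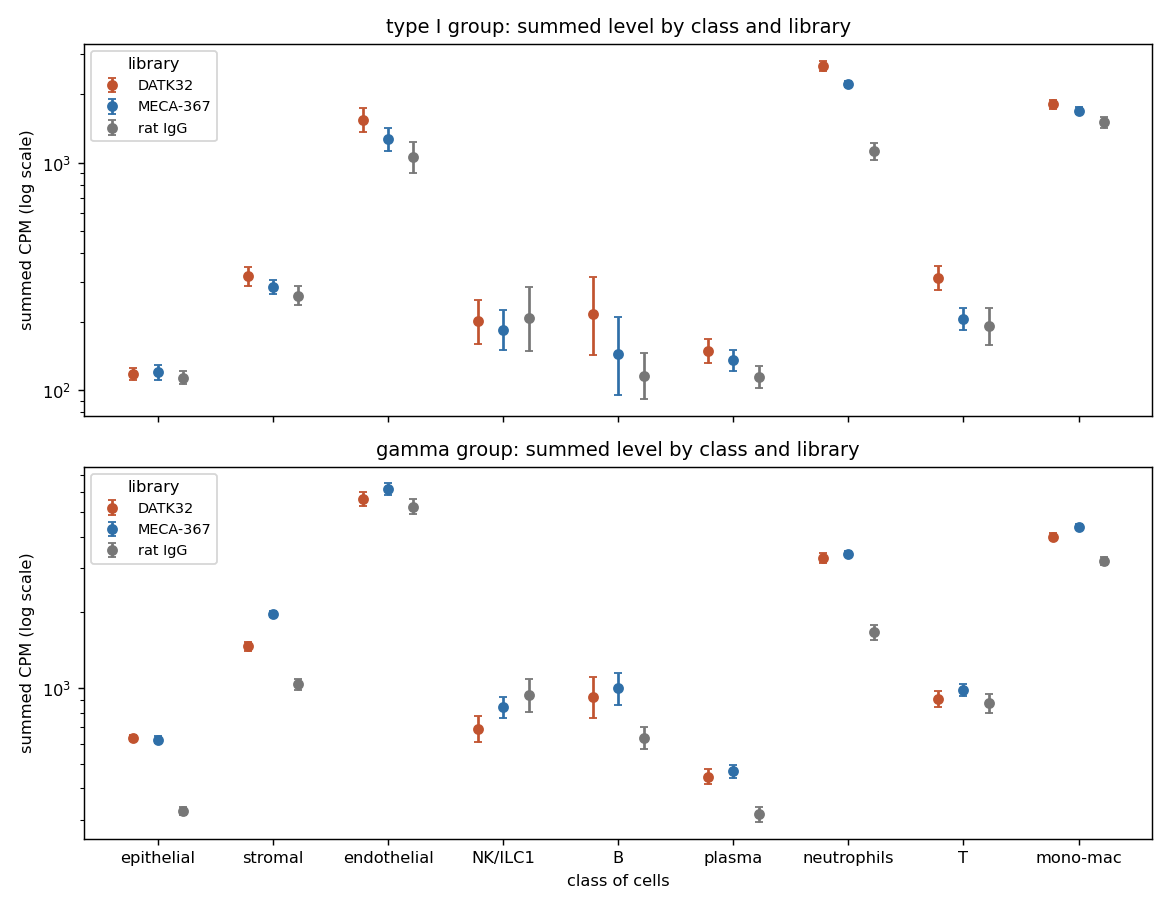
Summed level of the type I group and of the gamma group in CPM (log axis) by cell class and library, with 95% Poisson intervals as bars. Endothelial cells are highest for the gamma group in every library, and neutrophils are highest for the type I group in DATK32 and MECA-367, while in rat IgG monocytes with macrophages (1506 CPM) stand above neutrophils (1123 CPM).

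Set against neutrophils of the same library, epithelium was lowest for type I genes, with log2 differences of -4.50 in DATK32, -4.21 in MECA-367 and -3.31 in rat IgG. In rat IgG, plasma cells (-3.29) and B cells (-3.26) were close to it. Of the 32 genes, 28 were lower in epithelium than in neutrophils in all 3 libraries and 0 were higher, where 7.72% of 13434 genes were called lower and 7.39% higher. Plasma cells had 24 lower and 1 higher (17.2% of all genes lower and 2.56% higher), B cells 17 lower and 1 higher (4.73% and 4.96%), NK cells with ILC1 13 lower and 1 higher (5.59% and 5.77%), and stroma 16 lower and 2 higher (8.09% and 12.5%). Some of these genes had 20 counts only once neutrophils, where they are high, were added to the class, so that they could pass only as lower. Among the genes with at least 20 counts in the class itself, 22 of 26 were lower in epithelium (6.01% of all genes so chosen), 21 of 27 in plasma cells (17.9%), 9 of 17 in B cells (4.54%), 7 of 18 in NK cells with ILC1 (4.72%) and 14 of 29 in stroma (6.98%). The median of these genes stood at -3.25 in epithelium, -2.74 in plasma cells, -0.98 in B cells, -1.44 in NK cells with ILC1 and -1.52 in stroma on the log2 scale. Over all genes chosen the same way the medians were 0.49, -0.57, 0.61, 0.57 and 0.50.

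Endothelium broke the pattern, with 6 genes higher than in neutrophils and 3 lower, where 7.14% of all genes were called higher and 3.09% lower. The 6 were Ifit2, Gbp3, Gbp4, Igtp, Iigp1 and Bst2, and the 3 were Oas3, Oasl2 and Isg20, of which Oas3 and Isg20 had only 6 and 18 counts in endothelium. Among genes with at least 20 counts in endothelium itself, 6 of 26 were higher (23.1%), against 15.6% of all genes so chosen. Of the same 26 genes, 1 was lower, against 3.88% of all genes. Iigp1, a GTPase that coats parasite vacuoles, was at 1819, 1921 and 1763 CPM in endothelium of the DATK32, MECA-367 and rat IgG libraries, log2 4.94, 5.34 and 6.24 over neutrophils. In stroma Iigp1 was log2 3.12, 3.82 and 3.60 over neutrophils. Gbp4 was at 632, 610.3 and 533 CPM in endothelium, and it was above neutrophils in NK cells with ILC1 and in B cells as well. Words of its 3′ end are partly shared with Gbp6, Gbp9 and Gbp11 (8.22%), so its counts may be short by reads that could not be placed. Bst2, the membrane tether that holds budding virus, exceeded neutrophils in endothelium, stroma and plasma cells, by log2 2.51, 3.25 and 2.74 in plasma cells of the 3 libraries. The summed gamma level of endothelium exceeded neutrophils by log2 0.78, 0.85 and 1.66, a call in every library that was lost under 7 of 14 alternatives. The middle one of the 3 values was then 0.30 with TMM scaling (trimmed mean of M values) and 0.33 without Iigp1. The type I level of endothelium was below neutrophils by log2 -0.78, -0.81 and -0.09, called in DATK32 and MECA-367 and not in rat IgG. Neutrophil markers were present in endothelial cells at 4776, 5187 and 5346 CPM, with all 11 detected in each library. Scaled by the marker level of neutrophils in the same library, these correspond to 98.7, 63.3 and 68.2 CPM of type I genes and 122, 97.4 and 101 CPM of gamma genes, if the RNA had the make-up of those neutrophils. The 13 stromal markers, all detected, summed to 4385, 2320 and 4143 CPM in endothelium, against 39120, 33999.8 and 37047.7 CPM in stroma. In endothelium of the MECA-367 library, plasma cell markers also summed to 19618 CPM, against 833 CPM in rat IgG. The part of these markers' cells in the levels was not tested.

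**Figure D2:**
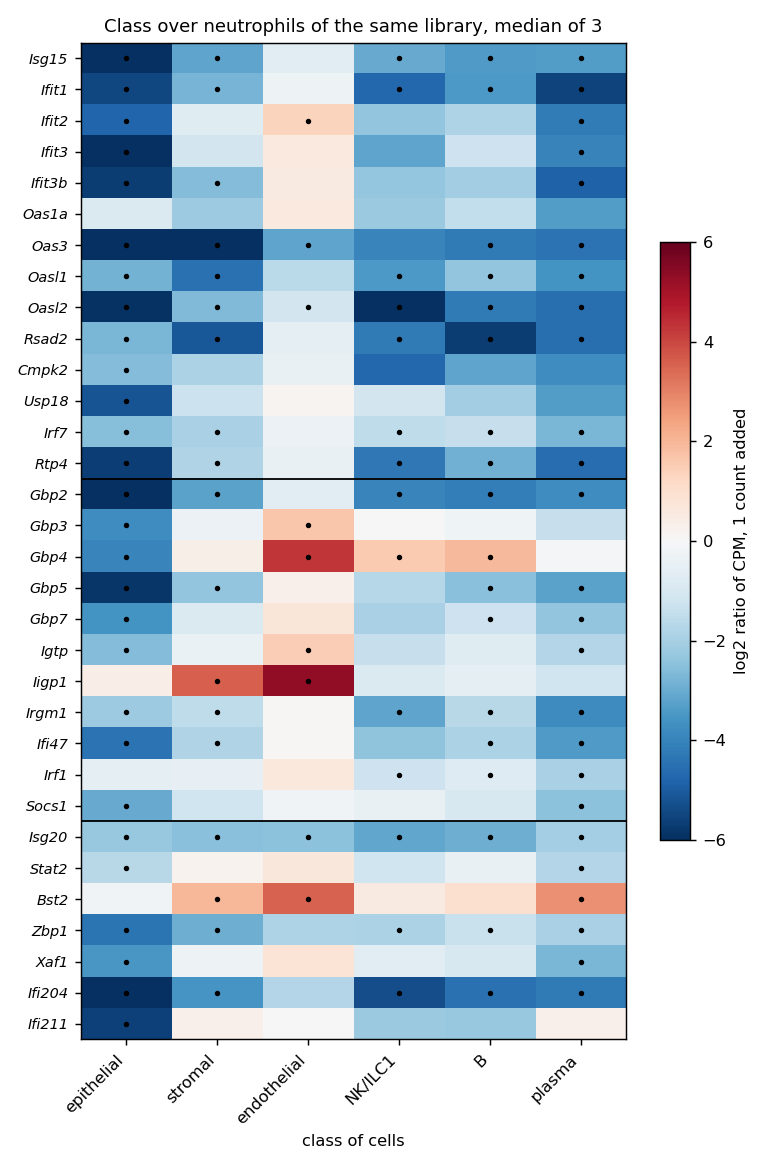
Log2 ratio of each of the 32 genes in 6 cell classes over neutrophils of the same library, given as the median of the 3 libraries, with a dot where the call was the same in all 3. Iigp1 and Gbp4 stand above neutrophils in endothelium (by at least 3.98 in every library), while 28 genes of epithelium and 24 of plasma cells lie below.

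The genes that made up each sum differed by cell class. In epithelium the type I counts were led by Rsad2 (40.8%), which makes a nucleotide that ends viral RNA chains, and by Irf7 (20%), the master regulator of type I interferon. Isg15, a ubiquitin-like modifier, led in neutrophils with 30.8%, in endothelium with 28.9%, in stroma with 25.2%, in NK cells with ILC1 with 44.4% and in plasma cells with 41.1%. In B cells Irf7 led with 30.2%. Among gamma genes, the transcription factor Irf1 gave 64.2% of epithelial counts, while Gbp2 gave 36.1% in neutrophils and Iigp1 33.2% in stroma and 32.1% in endothelium. Irf1 led the gamma counts of NK cells with ILC1 (25.4%), B cells (29.9%) and plasma cells (28.0%).

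Between libraries the epithelium differed in its summed gamma level, and its summed type I level was not called different. The summed gamma level in epithelium was 634 CPM in DATK32 (95% interval 617 to 650.4), 625 CPM in MECA-367 (605 to 646) and 324 CPM in rat IgG (313 to 337). In this sum both antibody libraries were near each other and well above rat IgG, by log2 0.97 (0.90 to 1.03) for DATK32 and 0.95 (0.87 to 1.02) for MECA-367. Irf1 gave 64.2% of the epithelial gamma counts. Without Irf1, DATK32 stood at log2 -0.43 against MECA-367, not called, and MECA-367 stood at 1.34 over rat IgG. Against rat IgG, the type I level differed by 0.05 (-0.08 to 0.18) in DATK32 and 0.08 (-0.06 to 0.22) in MECA-367 on the log2 scale. Over 14 alternatives these type I values ranged from -0.008 to 0.27 in DATK32 and from -0.02 to 0.56 in MECA-367. None was called, although the highest MECA-367 value lay just under the fold of 1.5. Of 26 genes measured, 6 rose in DATK32 against rat IgG and 0 fell, where 0.905% of 12922 genes were called higher and 1.06% lower. All 6 were among the 11 gamma genes, and 0 of 9 type I genes passed. In MECA-367, 13 of 26 rose and 0 fell, where 1.73% of genes were called higher and 2.78% lower, and the 13 comprised 10 of 11 gamma genes, 2 of 9 type I genes and 1 of 6 mixed genes. The 2 type I genes were Isg15, at 6.83, 8.97 and 4.33 CPM in the DATK32, MECA-367 and rat IgG libraries (log2 1.04 for MECA-367), and Oas1a, at 6.26, 8.97 and 4.56 CPM (log2 0.97). The median gamma gene stood at log2 0.74 in DATK32 and 1.35 in MECA-367, the median type I gene at 0.21 and 0.39, and the median of all genes at -0.03 and -0.04.

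Irf1, which activates many later interferon genes, was at 430.2 CPM in DATK32 epithelium, 352 CPM in MECA-367 epithelium and 217 CPM in rat IgG epithelium. It rose by log2 0.99 and 0.70. Iigp1 was at 67.8 and 103 CPM in the DATK32 and MECA-367 libraries and 30.4 CPM in rat IgG, a rise of log2 1.15 and 1.76. MECA-367 epithelium was highest for this gene and rat IgG lowest. Irgm1, which guards the cell's own membranes from its sister GTPases, was at 56.7 and 59.0 CPM against 30.9 CPM in rat IgG (log2 0.87 and 0.93). Igtp was at 14.6 and 23.1 CPM against 8.65 CPM (log2 0.74 and 1.41). Gbp7 was at 20.6 and 19.9 CPM against 8.30 CPM (log2 1.30 and 1.25), and Gbp5, which helps inflammasomes form, was at 7.06 and 8.45 CPM against 3.27 CPM (log2 1.08 and 1.35). These 6 genes were above rat IgG with both antibodies.

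A second set rose in MECA-367 epithelium and did not pass in DATK32. Socs1, the feedback inhibitor of interferon receptor kinases, was at 9.67 CPM in DATK32, 17.8 CPM in MECA-367 and 5.96 CPM in rat IgG (log2 0.69 and 1.56 over rat IgG). Gbp2 was at 7.97, 16.2 and 5.85 CPM in the 3 libraries, log2 0.44 and 1.46 over rat IgG. Gbp4 was at 1.71, 5.28 and 1.52 CPM on 15, 30 and 13 counts. DATK32 was close to rat IgG for Gbp4 and Gbp2. Set directly against MECA-367, DATK32 epithelium was lower in 6 of 26 genes (Gbp4, Ifit1, Gbp2, Socs1, Igtp and Iigp1, by log2 -0.60 to -1.58) and higher in 0, where 1.32% of genes were called lower and 1.67% higher. Rsad2, the leading type I gene, was at 47.5, 42.1 and 51.7 CPM in the DATK32, MECA-367 and rat IgG libraries and was level within the rule.

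**Figure D3:**
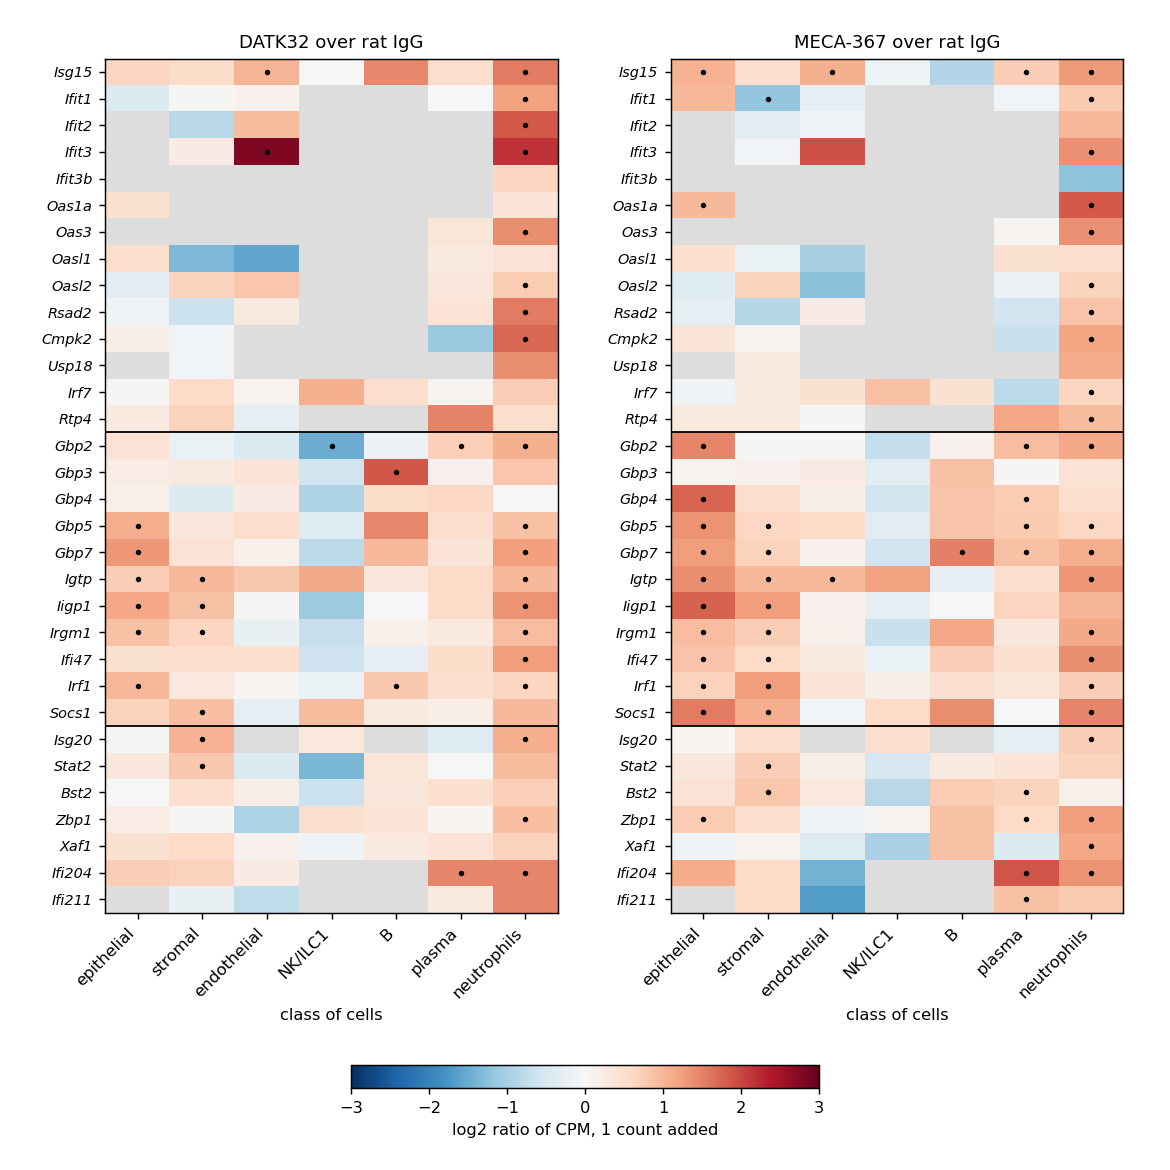
Log2 ratio over rat IgG of each measured gene in 7 cell classes, for DATK32 and for MECA-367, with genes ordered by group, grey where not measured and a dot where called. The gamma genes called in epithelium (6 in DATK32 and 10 in MECA-367) stand above 0, and the type I genes called are mostly in neutrophils (8 of 14 in DATK32 and 10 of 14 in MECA-367).

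The epithelial difference ran through the epithelial clusters, although they differed in level. In the cluster led by Top2a and histone genes (cluster 17) the gamma level was 978, 1155 and 490.4 CPM in the DATK32, MECA-367 and rat IgG libraries. In the cluster led by Muc2 and Spink4 (cluster 16) it was 589, 599.8 and 314 CPM. Cluster 17 was the highest in each library, and it held 431 of 1634 DATK32, 307 of 937 MECA-367 and 273 of 2048 rat IgG epithelial cells. With the 5 clusters weighted equally the log2 difference over rat IgG was 0.90 in DATK32 and 1.06 in MECA-367. The cluster with Chga and Chgb (cluster 22), on 45, 36 and 70 cells, had 326, 643 and 207 CPM, and its DATK32 and rat IgG intervals overlap (237 to 437 and 149 to 281). The remaining 2 epithelial clusters had 555, 453 and 316 CPM (cluster 13) and 501, 432 and 249 CPM (cluster 14). Median UMIs per epithelial cell were 4752, 5224 and 3586.5, and the 11 neutrophil markers, all detected in each library, summed to 97.0, 121 and 41.6 CPM. Scaled in the same way by neutrophils, these correspond to 2.48, 2.28 and 0.787 CPM of gamma genes. Leaving out epithelial cells with over 0.5% of UMIs from S100a8 and S100a9 left the log2 differences at 0.96 and 0.95. Over all 14 alternative settings they stayed between 0.90 and 1.04 for DATK32 and between 0.86 and 1.34 for MECA-367. The number of genes called higher in DATK32 varied from 3 at a fold of 2 (0.433% of all genes) to 12 when cells were classed by marker counts (1.11%), and in MECA-367 from 8 (0.82%) to 17 (3.22%) under the same settings.

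**Figure D4:**
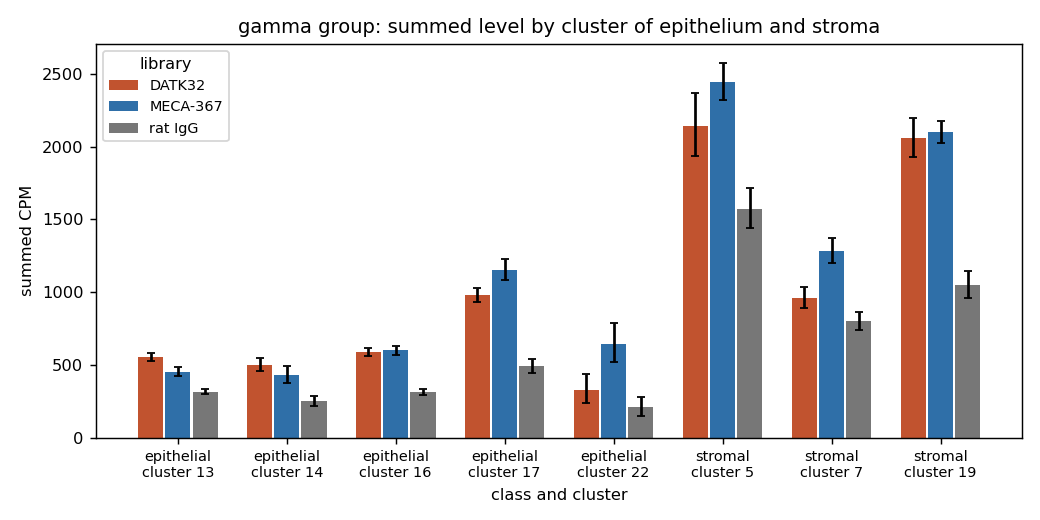
Summed gamma level in CPM with 95% Poisson intervals in each epithelial and stromal cluster, by library. In all 8 clusters both antibody libraries lie above rat IgG, with intervals apart except for DATK32 in cluster 22 (326 against 207 CPM).

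Other genes known to answer interferon gamma were also called higher in epithelium. Of 21 measured, 5 rose in DATK32 (0.905% of all genes) and 11 in MECA-367 (1.73%) against rat IgG, with 0 lower (1.06% and 2.78%). Of 20 other type I-responsive genes, 1 rose and 1 fell in DATK32 and 1 rose in MECA-367, beside the same shares of all genes. Set against MECA-367, DATK32 was higher in 2 of the 21 gamma-responsive genes (1.67% of all genes) and lower in 6 (1.32%), with a median of log2 -0.61, against 0.01 over all genes. Cxcl9, a chemokine for CXCR3-bearing lymphocytes, was at 46.3, 24.1 and 10.9 CPM, and Cxcl10, of the same family, at 191, 122 and 71.4 CPM in the DATK32, MECA-367 and rat IgG libraries. These are the 2 that were higher in DATK32 than in MECA-367. Tgtp1, another immunity-related GTPase, was at 5.69, 7.21 and 1.17 CPM. Ido1, which breaks down tryptophan, was at 7.85, 35.2 and 5.61 CPM and was high in MECA-367 alone among the 3 libraries.

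Stroma differed most in the MECA-367 library. Its summed gamma level was 1465 CPM in DATK32 (1402 to 1531), 1969.7 CPM in MECA-367 (1917 to 2024) and 1034 CPM in rat IgG (985 to 1085). MECA-367 rose by log2 0.93 (0.85 to 1.01), while DATK32 stood at 0.50 (0.41 to 0.60), under the fold of 1.5. With median-of-ratios scaling the DATK32 value was 0.61 and passed. The type I level stood at log2 0.28 (0.08 to 0.48) in DATK32 and 0.12 (-0.05 to 0.30) in MECA-367, and neither passed. Of 29 genes measured, 6 rose in DATK32 (0.665% of all genes higher and 2.08% lower), namely 4 of 11 gamma genes and 2 of 7 mixed genes. In MECA-367, 10 rose (3.09% higher), namely 8 gamma and 2 mixed genes, and Ifit1 fell (6.37% lower). With at most 5% mitochondrial UMIs the genes called higher were 3 of 28 in DATK32 (0.674% of all genes) and 5 in MECA-367 (2.7%).

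Iigp1 in stroma was at 519 CPM in DATK32 and 674 CPM in MECA-367, against 284 CPM in rat IgG (log2 0.87 and 1.24). Irf1 was at 292 and 557 CPM against 233 CPM, and it rose in MECA-367 alone (log2 0.33 and 1.26), so that DATK32 was lower than MECA-367 by log2 -0.93. Igtp was at 78.8 and 78.7 CPM against 39.99 CPM in rat IgG (log2 0.97 and 0.96), equal in both antibody libraries. Socs1 was at 41.2 and 47.8 CPM against 21.9 CPM (log2 0.90 and 1.10). Stat2, a transducer of type I signalling, was at 64.8 and 62.1 CPM against 36.9 CPM (log2 0.81 and 0.74), and Isg20, a nuclease for viral RNA, at 44.2 and 31.3 CPM against 21.3 CPM (log2 1.04 and 0.53). Bst2 was at 275 and 344 CPM against 194 CPM (log2 0.50 and 0.83). Gbp2 did not pass, with 121 and 134.5 CPM against 139.98 CPM. Ifit1, a sensor of viral RNA caps, went the other way, with 36.8 CPM in DATK32, 16.2 CPM in MECA-367 and 36.2 CPM in rat IgG. Set against MECA-367, DATK32 stroma was higher in Ifit1 (3.72% of genes higher) and lower in Irf1 and Gbp4 (3.28% lower).

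Within stroma the Adamdec1 and Ccl11 cluster (cluster 19) carried the widest gap, with 2059, 2098 and 1048 CPM of gamma genes in the DATK32, MECA-367 and rat IgG libraries. The Lum and Dpt cluster (cluster 7) had 961, 1285 and 799 CPM, and the remaining cluster 5 had 2145, 2446 and 1573 CPM. Type I genes in the Adamdec1 and Ccl11 cluster were at 484, 255 and 189 CPM, where DATK32 alone stood apart. The clusters took unequal parts of each library, since the Adamdec1 and Ccl11 cluster held 251 of 878, 633 of 1227 and 385 of 1271 stromal cells. Of 19 other gamma-responsive genes measured in stroma, 0 passed in DATK32 (0.665% of all genes higher) and 4 rose in MECA-367 (3.09%), among them Cxcl10 at 473, 903 and 332 CPM, Serpina3g at 105, 169 and 73.1 CPM and the adhesion molecule Icam1 at 279.8, 550.0 and 275 CPM.

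Endothelium was high in all 3 libraries and differed little between them. The gamma level stood at log2 0.10 (-0.04 to 0.24) in DATK32 and 0.23 (0.10 to 0.36) in MECA-367 over rat IgG. The type I level stood at 0.55 (0.26 to 0.84) and 0.26 (-0.02 to 0.55), and the DATK32 value passed under 7 of 14 alternatives, up to 0.86 with at most 5% mitochondrial UMIs. Of 26 genes measured, 2 rose in DATK32 (1.05% of genes higher, 1.21% lower) and 2 in MECA-367 (1.94% higher, 2.56% lower). Isg15 was at 428 and 444 CPM against 208 CPM in rat IgG, and it rose with both. Ifit3 had 14, 10 and 1 counts in the DATK32, MECA-367 and rat IgG libraries, so that its DATK32 call rests on a single rat IgG count. Igtp was at 289 and 328 CPM against 163 CPM and passed in MECA-367 (log2 0.80 and 0.97). Oasl2 was at 145 CPM in DATK32 and 31.4 CPM in MECA-367, a difference of log2 2.07 on 24 and 7 counts, with rat IgG between them at 78.1 CPM, and it was the single gene called between these libraries (2.35% of genes higher). Of 17 other gamma-responsive genes measured in endothelium, 1 rose and 2 fell in DATK32, and 1 fell in MECA-367, beside the same shares of all genes. Irgm2, the GTPase that rose, was at 181, 112 and 65.0 CPM (log2 1.38 in DATK32). Cxcl9 was at 458, 826 and 1197 CPM, log2 -1.38 in DATK32 and, not called, -0.54 in MECA-367 against rat IgG. Cxcl10 was at 1126, 1396 and 2530.1 CPM and was lower with both antibodies (log2 -1.16 and -0.86). Irf1, at 687, 844 and 644 CPM, and Gbp2, at 572, 799 and 780.5 CPM, did not pass.

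NK cells with ILC1 showed no rise. The gamma level was log2 -0.45 (-0.72 to -0.17) in DATK32 and -0.16 (-0.41 to 0.10) in MECA-367 against rat IgG, and the type I level -0.07 (-0.61 to 0.53) and -0.20 (-0.72 to 0.39). The intervals are wide, on 40 type I counts in rat IgG. Of 18 genes measured, 0 rose, and Gbp2 fell in DATK32, where 1.59% of genes were called lower. Gbp2 was at 43.6 CPM in DATK32, 77.4 CPM in MECA-367 and 125 CPM in rat IgG (log2 -1.50 and -0.71). With TMM scaling the gene was no longer called, whereas the summed gamma level passed as lower with at most 5% mitochondrial UMIs (-0.67) and without the highest doublet scores (-0.59). Irf1 at 174, 228 and 197.5 CPM and Gbp5 at 96.9, 101 and 125 CPM did not pass. In MECA-367, 0 of 18 passed either way (1.11% of genes higher and 2.43% lower). Neutrophil markers summed to 157, 177 and 473 CPM in these cells, with 6, 6 and 9 of 11 detected, and their part in the values was not tested.

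The ligand of the gamma route was most abundant in NK cells with ILC1. Ifng was at 1420 CPM there in DATK32, 1658 CPM in MECA-367 and 1019 CPM in rat IgG, with counts in 101 of 326, 137 of 380 and 65 of 190 cells. All 12 T cell markers were detected in this class too, summing to 2464, 2398 and 2479 CPM, against 5010.1, 4951 and 4806 CPM in T cells, so T cells may be among its cells. MECA-367 rose by log2 0.70, and DATK32 stood at 0.47. Over all kept cells Ifng had 896, 2322 and 493 counts, against 20, 19 and 11 for Ifnb1, 0, 2 and 0 for Ifna2, 2, 1 and 0 for Ifnl3, and 0 for the 7 other type I and lambda ligands counted. The type I ligands counted were thus barely detected at this depth. Of the Ifna genes only Ifna1, Ifna2, Ifna4, Ifna5 and Ifna6 were counted, and sequence shared between ligands was not checked. In MECA-367 a large part of Ifng came from T cells, with 817 counts against 42 in DATK32 and 29 in rat IgG, in 55, 30 and 24 cells, and 1 MECA-367 T cell held 216. In epithelium, which should lack it, Ifng had 1, 7 and 135 counts in 1, 7 and 4 cells, and 129 of the rat IgG counts were in 1 cell. Of the 11 interferon ligands counted, 1 was measured in each of plasma cells, neutrophils and stroma. The measured ligand was called higher in MECA-367 than in rat IgG there, by log2 4.07, 1.57 and 1.50 (2.01%, 4.66% and 3.09% of all genes higher). The source of these counts was not tested. Median UMIs were 1023.5, 1180.5 and 735.5 in NK cells with ILC1.

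B cells and plasma cells had few genes called. In B cells the type I level stood at log2 0.93 (0.21 to 1.55) in DATK32 on 27 counts, not called, and passed under 5 of 14 alternatives. Over the 14 alternatives it ranged from -0.21 to 1.13, so its direction depended on the processing. In B cells the gamma level stood at log2 0.55 (0.23 to 0.84) in DATK32 and rose by 0.66 (0.40 to 0.91) in MECA-367, a call that was lost with cells classed by marker counts (0.42). The DATK32 gamma value ranged from -0.22 to 0.63 over the 14 alternatives. Of 17 genes measured, Gbp3 and Irf1 rose in DATK32 (1.05% of genes higher, 0.69% lower) and Gbp7 in MECA-367 (1.24% higher, 2.55% lower), and 0 differed between DATK32 and MECA-367 (0.898% higher, 0.432% lower). Irf1 was at 329 and 261 CPM against 190.1 CPM in rat IgG. Gbp3 had 11, 8 and 16 counts, at 88.2, 42.7 and 24.7 CPM. Gbp7 was at 80.2, 123 and 43.3 CPM on 10, 23 and 28 counts. The B cell values therefore rest on few counts in both antibody libraries, and plasma cell markers were at 842, 1163 and 9315 CPM in B cells, highest in rat IgG, where their part in the ratios was not tested.

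Plasma cells had gamma levels log2 0.50 (0.36 to 0.64) above rat IgG in DATK32 and 0.57 (0.44 to 0.70) in MECA-367, both just under the fold of 1.5 and both above it with TMM scaling (0.62 and 0.81). Of 27 genes measured, 2 rose in DATK32 (0.964% of genes higher, 1.72% lower) and 9 in MECA-367 (2.01% higher, 7.61% lower). Between DATK32 and MECA-367, 0 were called (3.34% of genes higher, 1.72% lower). Ifi204, a member of the DNA-sensing p200 family, was at 14.7 and 19.8 CPM against 5.14 CPM in rat IgG (log2 1.47 and 1.88). Gbp2 was at 79.3 and 92.9 CPM against 48.4 CPM (log2 0.71 and 0.93), and both genes were above rat IgG with both antibodies. The remaining 7 in MECA-367 were Isg15, Gbp4, Gbp5, Gbp7, Bst2, Zbp1 and Ifi211, among which Ifi211 shares 59.4% of its 3′ end words with Ifi205 and Mndal and is uncertain. Bst2 was the most abundant, at 456, 519 and 327 CPM. Neutrophil markers summed to 336, 2070 and 769 CPM in plasma cells, highest in MECA-367, with 11 of 11 detected in each. Scaled by neutrophils, these correspond to 8.59, 38.9 and 14.5 CPM of gamma genes, and their part in the ratios was not tested.

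Among the 7 classes described in depth, the summed type I level was called different from rat IgG in neutrophils only, and neutrophils had the most genes called. The type I level was higher than in rat IgG by log2 1.24 (1.10 to 1.39) in DATK32 and 0.98 (0.85 to 1.12) in MECA-367, and the gamma level by 0.98 (0.86 to 1.11) and 1.04 (0.93 to 1.15). Of 32 genes, 19 rose in DATK32 (1.6% of 8475 genes higher, 2.25% lower) and 22 in MECA-367 (4.66% higher), with 0 lower. The genes that rose were 8 of 14 type I, 8 of 11 gamma and 3 of 7 mixed genes in DATK32, and 10, 8 and 4 in MECA-367. Between DATK32 and MECA-367, Rsad2 and Ifit3b were higher (6.84% of genes higher) and Oas1a lower (2.21% lower) in DATK32. The MECA-367 comparison sits on a shifted background, since the median of all genes there was -0.55 and 17.1% of genes were called lower.

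Isg15 in neutrophils was at 841 CPM in DATK32, 692 CPM in MECA-367 and 284 CPM in rat IgG (log2 1.56 and 1.27). Rsad2 was at 453, 279 and 152 CPM, and DATK32 exceeded MECA-367 by log2 0.70. Ifit3 was at 55.9, 32.8 and 10.7 CPM on 30, 64 and 5 counts. For all 3 genes the order was DATK32, MECA-367, rat IgG. Cmpk2, a nucleotide kinase next to Rsad2 in the genome, was at 69.0, 48.1 and 19.2 CPM, and Ifit2 at 67.1, 37.9 and 17.1 CPM. Oas3, which makes the messenger that activates RNase L, was at 149, 148 and 55.5 CPM. Among gamma genes, Gbp2 was at 1188, 1241 and 563.5 CPM and Ifi47 at 326, 361 and 134.5 CPM, with both antibodies alike. Socs1 was at 95.1, 135 and 47.0 CPM and passed in MECA-367 alone (log2 0.98 and 1.47). Ifi204 was at 285, 265 and 102 CPM. Oas1a, at 9.32, 30.2 and 6.40 CPM on 5, 59 and 3 counts, shares 42.3% of its 3′ end words with Oas1g and is uncertain.

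The neutrophil values depended on which cells were kept. The 11 neutrophil markers summed to 128672, 182010 and 88009.7 CPM in the DATK32, MECA-367 and rat IgG neutrophils, median UMIs were 1140, 2463 and 868, and epithelial markers summed to 8988, 5412 and 9333 CPM, with 15 of 15 detected in each. Cells with over 0.5% of UMIs from epithelial markers were 13.4%, 10.1% and 23.8%. Without them the type I level stood at log2 0.96 in DATK32, still called, and at 0.39 in MECA-367, no longer called, and the gamma level at 0.76 and 0.49. The genes called higher without them were 11 in DATK32 (0.683% of all genes) and 4 in MECA-367 (2.14%). With at most 5% mitochondrial UMIs they were 13 (0.865%) and 5 (2.03%). With TMM scaling they were 22 (3.15%) and 28 (12.6%).

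The share of cells carrying a count was also higher in antibody libraries for gamma genes of epithelium once each cell was thinned to 500 UMIs. A gamma count was present in 24.5% of DATK32 epithelial cells (exact binomial 95% interval 22.5% to 26.7%), 30.5% of MECA-367 cells (27.6% to 33.6%) and 16.4% of rat IgG cells (14.8% to 18.1%). Unthinned, the shares were 75.1%, 79.0% and 56.8%. A type I count was present in 5.75%, 6.62% and 5.37% of thinned epithelial cells, close together in the 3 libraries. Unthinned, the type I shares were 34.3%, 36.6% and 28.5%, at median UMIs of 4752, 5224 and 3586.5. For comparison, the neutrophil genes S100a8 and S100a9 had a count in 10.95%, 40.1% and 7.18% of unthinned epithelial cells. In stroma a gamma count was present in 33.7%, 53.3% and 30.9%, and in endothelium in 86.1%, 92.2% and 78.5%. A type I count was present in 71.4% of DATK32 neutrophils (65.2% to 77.1%), 63.9% of MECA-367 neutrophils (59.8% to 67.9%) and 44.7% of rat IgG neutrophils (38.2% to 51.3%). No single cell held more than 2.42% of the epithelial gamma counts of a library.

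**Figure D5:**
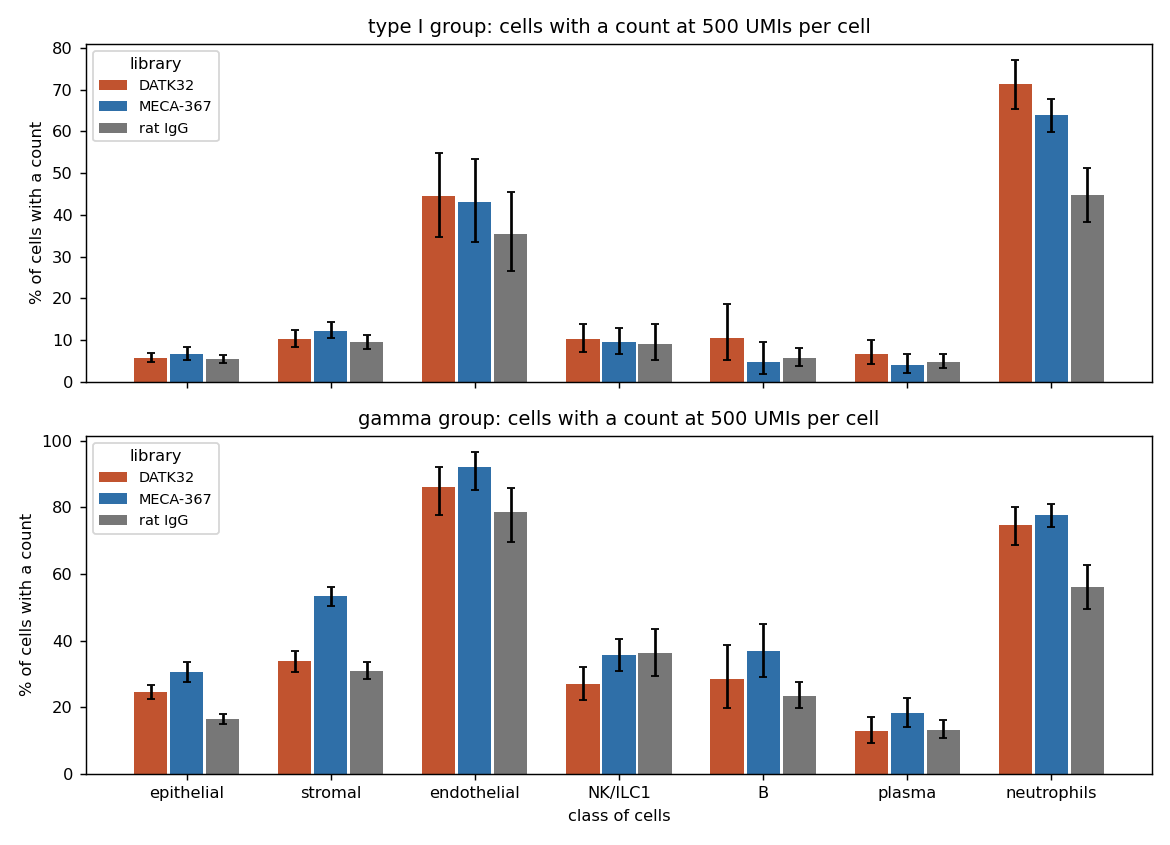
Share of cells with at least 1 count of the type I group or of the gamma group after thinning every cell to 500 UMIs, by class and library, with exact binomial 95% intervals. For gamma genes, epithelial shares are 24.5% in DATK32 and 30.5% in MECA-367, against 16.4% in rat IgG, while type I shares in epithelium lie between 5.37% and 6.62%.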

How the data were processed

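Single-cell RNA was counted in 3 libraries of mouse large intestine, 1 each for DATK32, MECA-367 and rat IgG. The authors deposited UMI counts per gene and barcode, made with Cell Ranger 6.0.2 on mm10 per the submitters' processing notes, from a 10x Chromium 3′ kit and a shared sequencing lane per the labels' protocols. Reads that fit several genes equally well may be missing from such counts. How free RNA and doublets were treated is not given in the sources used here.

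From the counts, barcodes with at least 500 UMIs, at least 200 genes and at most 10% mitochondrial UMIs were kept. Cells were clustered with scanpy 1.11.5 (2000 variable genes, 30 components, 15 neighbours, Leiden resolution 1.0) with the members left out of the genes used. Clusters were named from 19 marker lists, which gave 19 named and 8 unnamed clusters of 27. A cluster whose next list scored over 0.5 stayed unnamed, a limit set after seeing 178 cells with neutrophil and stromal markers. Scrublet called 1, 0 and 0 doublets in the DATK32, MECA-367 and rat IgG libraries and so had not worked. Doublets were kept, and an alternative left out the highest scores, 0.8% per 1000 cells.

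Counts were summed per class and library, and log2 ratios used 1 added count. Intervals are exact Poisson or exact binomial at 95%. Between libraries a difference was called at a fold of at least 1.5 with intervals apart, and against neutrophils where that held in the same direction in all 3 libraries. The minimum of 20 counts was taken there over the class and neutrophils together, and counts over the class alone were added after seeing the data. Genes named with values are, per class and comparison, at most the 6 called genes with the largest log2 ratio and the 3 with the most counts, and up to 4 called genes of the pathway lists. Ifng is given by name for NK cells with ILC1, T cells, epithelium and all kept cells. A further gene of the rule is not reported here. A few further members were named after their values were seen. The members and gene lists were chosen with earlier results of these data known. Thinning drew counts at random with a fixed seed. Alternatives changed scaling (TMM from edgeR 4.0.16 in R 4.3.3, or median of ratios), cell filters, clustering, class rule, doublets, cells with foreign RNA, averaging, the leading gene, count minimum, fold and thinning. Calls were tried on simulated Poisson counts with planted changes larger than the called fold. Such counts hold no variation between libraries or animals, so the trial cannot show how calls behave under it.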

Additional observations from a re-analysis of the deposited data

How the results depend on the processing

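Values are log2 ratios unless called counts. The gamma rise in epithelium with both antibodies, the gamma rise in MECA-367 stroma and both rises in DATK32 neutrophils kept their calls under all 14 alternatives, and no result changed direction with a call. Some alternatives could not change a call. The mean over clusters repeats the main values in classes made of a single cluster, such as neutrophils. Adding the unnamed cells with neutrophil and stromal markers to neutrophils left library ratios of the other classes unchanged. In stroma, DATK32 over rat IgG for gamma genes (0.50) passed with median of ratios (0.61) and the mean over clusters (0.59), DATK32 over MECA-367 (-0.43) passed with the mean over cells (-0.59), and the gamma deficit against neutrophils (-0.80) was lost with at least 1000 UMIs and 500 genes (-0.75) and the mean over clusters (-0.81). In endothelium, type I genes in DATK32 (0.55) passed with TMM (0.60), median of ratios (0.60), at most 5% mitochondrial UMIs (0.86), marker classes (0.82), doublets left out (0.66), foreign RNA left out (0.62) and the mean over cells (0.68). Type I genes against neutrophils (-0.78) passed with at most 5% mitochondrial UMIs (-0.89), marker classes (-0.74), foreign RNA left out (-1.06) and the mean over cells (-0.89). Gamma genes against neutrophils (0.85) lost the call with TMM (0.30), median of ratios (0.30), at most 5% mitochondrial UMIs (0.80), marker classes (0.83), foreign RNA left out (0.66), the mean over cells (0.71) and without Iigp1 (0.33). In NK cells with ILC1, gamma genes in DATK32 (-0.45) passed with at most 5% mitochondrial UMIs (-0.67) and doublets left out (-0.59), and against neutrophils (-2.02) lost the call at 1000 UMIs (-1.94). In B cells, type I genes in DATK32 (0.93) passed with members kept in the clustering (1.03), resolution 0.5 (1.06), doublets left out (1.07), foreign RNA left out (1.10) and without the leading gene (1.13). Their lowest value was -0.21, not called. Gamma genes in B cells passed in DATK32 (0.55) at 1000 UMIs (0.63), lost the call in MECA-367 (0.66) with at most 5% mitochondrial UMIs (0.57) and marker classes (0.42), and in DATK32 over MECA-367 (-0.11) passed with at most 5% mitochondrial UMIs (-0.79). Their lowest value in DATK32 over rat IgG was -0.22, not called. In plasma cells, type I genes in DATK32 (0.38) passed with at most 5% mitochondrial UMIs (0.63) and marker classes (0.65). Gamma genes there passed in DATK32 (0.50) with TMM (0.62), median of ratios (0.63) and marker classes (0.65), and in MECA-367 (0.57) with TMM (0.81), median of ratios (0.83), marker classes (0.69), doublets left out (0.62), without Irf1 (0.65) and with immunoglobulin counts left out of totals (0.71), a setting chosen after seeing the data. In neutrophils, MECA-367 lost the type I call (0.98) with at most 5% mitochondrial UMIs (0.33), marker classes (0.58), foreign RNA left out (0.39) and the mean over cells (0.53), and the gamma call (1.04) with at most 5% mitochondrial UMIs (0.52) and foreign RNA left out (0.49). The cause was not tested.

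Over the 7 classes, members counted higher in DATK32 than in rat IgG were 37, and 21 at a fold of 2. Members counted lower were 1, then 0 with TMM, median of ratios, members kept in the clustering, marker classes or resolution 0.5, and 2 at 1000 UMIs or with at least 1 count. In MECA-367 over rat IgG the higher count was 57, then 30 with at most 5% mitochondrial UMIs, 34 with foreign RNA left out, 33 with the mean over cells and 28 at a fold of 2, and the lower count 1, then 2 with marker classes or foreign RNA left out. In DATK32 over MECA-367 the higher count was 4, then 2 at 1000 UMIs or at least 50 counts, 14 with at most 5% mitochondrial UMIs or foreign RNA left out, 11 with marker classes or doublets left out and 7 with the mean over cells, and the lower count 9, then 15 with TMM or median of ratios, 3 with at most 5% mitochondrial UMIs and 4 with the mean over clusters or a fold of 2. These member counts are sums over classes, with 17 to 32 members measured in each class. By class, the main share of all genes called in DATK32 over rat IgG was 0.479% to 1.6% higher and 0.69% to 2.25% lower. In MECA-367 over rat IgG it was 1.11% to 4.66% higher and 2.43% to 17.1% lower. In DATK32 over MECA-367 it was 0.898% to 6.84% higher and 0.432% to 3.28% lower. The share of all genes called moved with the setting too. In neutrophils, 4.66% of all genes were higher in MECA-367 than in rat IgG. This share was 12.6% with TMM, 2.03% with at most 5% mitochondrial UMIs and 2.23% at a fold of 2. Neutrophil genes lower in DATK32 than in MECA-367 were 2.21%, and 7.07% with TMM. The member counts are therefore not read apart from such shifts. For shares of cells, the log2 ratio over rat IgG in MECA-367 stroma for type I genes (0.37) passed unthinned (0.93). In neutrophils it lost the call for type I genes in DATK32 (0.68) unthinned (0.42) and passed in MECA-367 (0.52) at 1000 UMIs (0.64). For gamma genes of epithelium it passed in DATK32 (0.58) at 1000 UMIs (0.67) and lost the call in MECA-367 (0.90) unthinned (0.48). For gamma genes of stroma it lost the call in MECA-367 (0.79) at 1000 UMIs (0.41), and in DATK32 over MECA-367 (-0.66) unthinned (-0.51) and at 1000 UMIs (-0.34). For gamma genes of B cells it lost the call in MECA-367 (0.65) unthinned (0.28) and at 1000 UMIs (0.19). TMM factors moved the neutrophil background by -0.55 in MECA-367 and -0.20 in DATK32 against rat IgG.

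No paired analysis was possible because each antibody has 1 library. Each comparison therefore sets 1 library against another, and animal, sort and antibody cannot be told apart. Endothelium, NK cells with ILC1 and B cells had the fewest counts, and differences under their intervals were not detectable at this depth.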
